A study of Mus musculus with 6 samples.

Results

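Kruppel-like factors are zinc finger transcription factors that bind GC-rich and CACCC elements in promoters, and some activate while others repress. Their genes answer quickly to injury, hormones, feeding and blood flow, and in liver they are known for links to amino acid breakdown, glucose output, the circadian clock and non-parenchymal cells. The 8 genes described here, Klf2, Klf3, Klf4, Klf6, Klf9, Klf10, Klf13 and Klf15, were chosen by name. Their values come from the 21 probe sets, of 22626 on the array that are not controls, whose annotation named exactly 1 of them, and 0 probe sets named a member together with another gene. A probe set is a group of short probes that reads a stretch of a transcript, and probe sets of 1 gene can read different stretches.

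Livers of 3 PiZ and 3 wild-type mice, all 6 weeks old and of the C57BL/6 strain, were each read on a one-colour Affymetrix array. The PiZ transgene encodes the human Z variant of alpha-1 antitrypsin, a secreted protease inhibitor that misfolds and accumulates in the endoplasmic reticulum of hepatocytes, and the mice keep their own genes for it. The labels state neither the promoter of the transgene, nor the sex of the mice, nor the hour at which livers were taken. The comparison asks how the liver transcriptome differs when the mutant protein is made.

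Values are log2 intensities, and differences subtract the wild-type mean from the PiZ mean of these log2 values. They were fitted with limma over all 22626 probe sets, with Benjamini-Hochberg adjustment at 0.05. Each group held n = 3 arrays, except in fits said to leave arrays out or to take PiZ replicate 1 alone. The labels call the arrays biological replicates without saying whether each is 1 mouse, and so few arrays limit the precision. Hepatocyte markers were high on every array, albumin (Alb) reading 14.89, 14.73 and 14.63 in PiZ and 14.94, 14.92 and 14.96 in wild-type. Among the PiZ arrays replicate 1 was set apart, correlating with them at 0.979 to 0.982 and with wild-type at 0.981 to 0.983. The log2 difference between the 3′ and 5′ control probe sets of Gapdh and beta-actin, which grows as RNA shortens, averaged 2.50, 4.64 and 4.33 in PiZ replicates 1, 2 and 3, and 2.20, 2.70 and 2.30 in wild-type. Replicate 1 is therefore the PiZ array whose RNA was as intact by this measure as that of wild-type, and each member is also given for it alone.

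Of the 21 probe sets, 5 rose and 1 fell in PiZ liver, that is 28.6%, against 19.1% of all probe sets on the array. Among all probe sets 8.93% rose and 10.2% fell. An unadjusted p below 0.05 was reached by 11 of the 21 and by 37.4% of all probe sets. The 6 belonged to 4 genes, with Klf3, Klf4 and Klf6 higher and Klf10 lower. PiZ and wild-type values did not overlap for 10 of the 21 (47.6%), 8 of them higher and 2 lower. Over the array 42.0% did not overlap, 23.4% higher and 18.6% lower, so the share was close to that of the array. The median difference of the 21 was 0.17, and of all probe sets 0.08. The count rested on which arrays entered, since 12 passed without PiZ replicate 1 and 3 passed without wild-type replicate 1 or without wild-type replicate 3. The whole array moved the same way. Of all probe sets 4331 passed, against 10547 without PiZ replicate 1, and 1266 and 1239 without wild-type replicates 1 and 3. The calls for Klf10, for Klf6 probe set 1418280_at and for Klf3 probe set 1429360_at held with each of the 6 arrays left out.

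**Figure D1:**
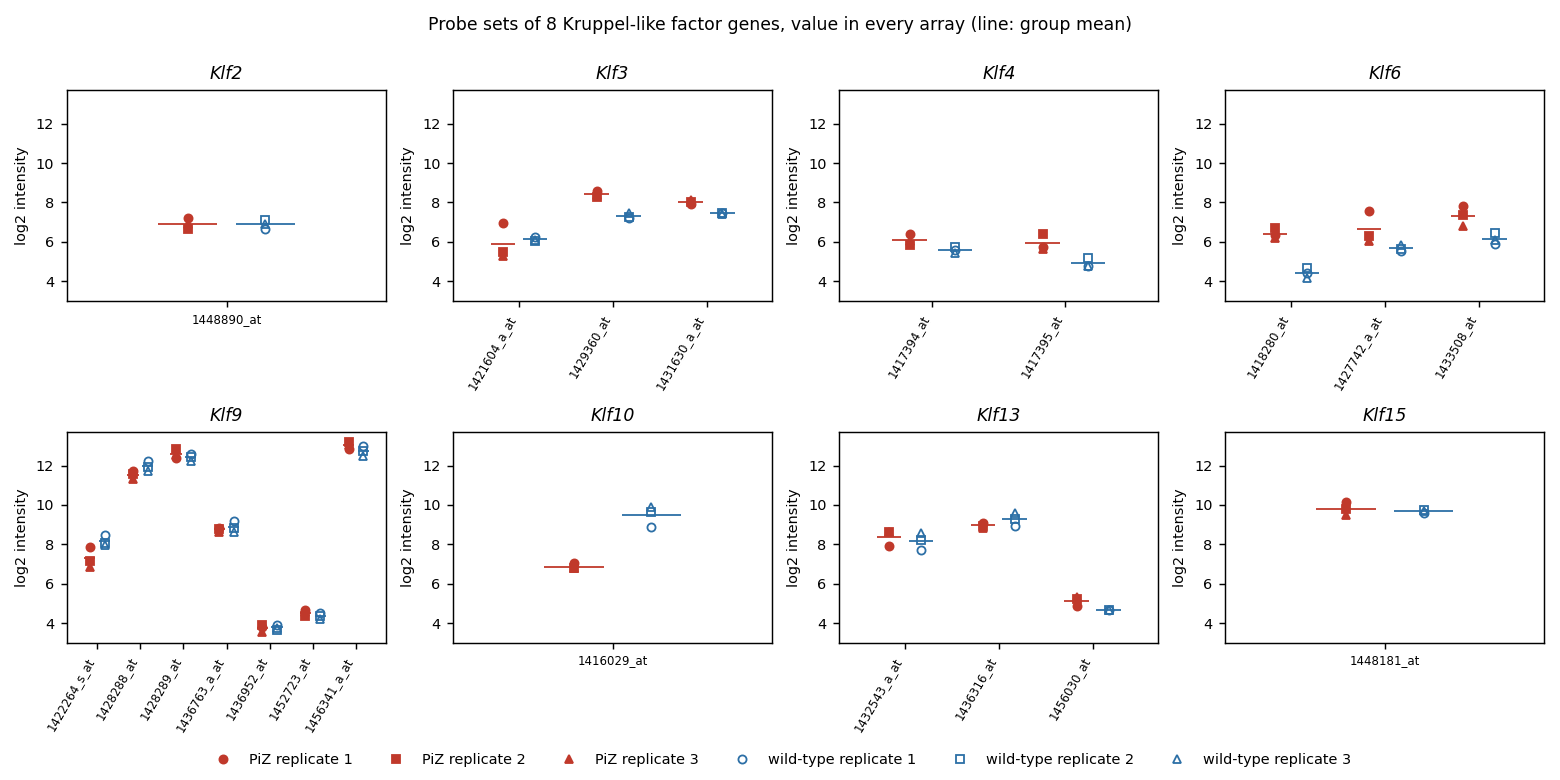
Log2 intensity (y axis) of each probe set (x axis) of the 8 genes in the 3 PiZ arrays (filled red) and the 3 wild-type arrays (open blue), with a line at each group's mean. Klf10 lies lower in all 3 PiZ arrays, all 3 Klf6 probe sets lie higher, and the 7 Klf9 probe sets span from 3.57 to 13.19.

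Klf10 showed the largest difference among the members. Klf10, first described as a gene induced early by TGF-beta and also known as a clock-controlled and sugar-responsive factor in liver, read 7.04, 6.77 and 6.80 in PiZ livers, against 8.88, 9.65 and 9.90 in wild-type livers. All 3 PiZ arrays lay below all 3 wild-type arrays, and the PiZ arrays spread less (SD 0.14) than the wild-type arrays (SD 0.53). The difference was -2.61 (SE 0.25, 95% interval -3.19 to -2.02, limma adjusted p = 0.00165), which is 6.09-fold lower in PiZ. PiZ replicate 1 alone differed from the wild-type mean by -2.44, and PiZ replicates 2 and 3 averaged -2.69. A single probe set, 1416029_at, reads this gene, so no other probe set bears on the value. In bulk liver, fewer cells of a type and less RNA per cell cannot be told apart.

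Klf6 was higher in PiZ in all 3 of its probe sets, and 2 passed. This factor is induced within hours of liver injury and was first noted in activated stellate cells, the fibrogenic cells of the sinusoid. Probe set 1418280_at read 6.33, 6.69 and 6.22 in PiZ, against 4.42, 4.65 and 4.18 in wild-type. The groups stood far apart, with the wild-type values next to the lower quartile of their arrays (4.27 to 4.32), so that the size of the rise is uncertain. It rose by 2.00 (SE 0.17, limma adjusted p = 0.00112), 3.99-fold on the intensity scale, and by 1.92 in PiZ replicate 1 alone.

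Probe set 1433508_at of Klf6 read 7.80, 7.34 and 6.78 in PiZ, against 5.91, 6.47 and 6.08 in wild-type, and rose by 1.15 (SE 0.27, limma adjusted p = 0.0249). This call was lost without PiZ replicate 2 (adjusted p = 0.0733) and without wild-type replicate 1, 2 or 3 (adjusted p = 0.101, 0.0514 and 0.0977). Probe set 1427742_a_at read 7.57, 6.31 and 6.05 in PiZ, against 5.53, 5.63 and 5.86 in wild-type. It did not pass (0.97, SE 0.36, limma adjusted p = 0.0981), although the groups did not overlap. With the mean 3′ minus 5′ value of Gapdh and beta-actin as a covariate 1427742_a_at passed (1.89, limma adjusted p = 0.00449). It also passed without PiZ replicate 1 (0.51, limma adjusted p = 0.0181), but not with any other array left out. The part of RNA quality in this probe set was not tested. Its PiZ replicate 1 lay 1.90 above the wild-type mean, and the other PiZ arrays 0.51 above it.

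Klf3, a repressor that works through the corepressor CtBP and is known in fat, muscle and blood cells, was higher in 2 of 3 probe sets. Probe set 1429360_at read 8.59, 8.28 and 8.37 in PiZ, against 7.23, 7.25 and 7.49 in wild-type. The groups were separate, and the rise of 1.09 (SE 0.13, limma adjusted p = 0.00331) was of similar size in PiZ replicate 1 (1.27) and in PiZ replicates 2 and 3 (1.01). Probe set 1431630_a_at read 7.94, 8.02 and 8.11 in PiZ, against 7.47, 7.45 and 7.42 in wild-type. It rose by 0.58 (SE 0.10, adjusted p = 0.011), a call lost without wild-type replicate 1, 2 or 3 (adjusted p = 0.056, 0.0542 and 0.0613).

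The third Klf3 probe set, 1421604_a_at, gave opposite directions in the PiZ arrays. It read 6.98, 5.48 and 5.27 in PiZ, against 6.27, 6.05 and 6.09 in wild-type, so PiZ replicate 1 lay above every wild-type array and the other PiZ arrays below every one. Its difference was -0.23 (SE 0.41, limma adjusted p = 0.713). It became 0.86 (adjusted p = 0.0321) once the mean 3′ minus 5′ value of Gapdh and beta-actin entered as a covariate, and PiZ replicate 1 alone lay 0.85 above the wild-type mean, a single array with no spread of its own. Without PiZ replicate 1 it was -0.76 (adjusted p = 0.00164). The gap between probe sets 1429360_at and 1421604_a_at was 1.61, 2.80 and 3.11 in PiZ and 0.96, 1.21 and 1.40 in wild-type, and the PiZ arrays with the larger gap were those with the larger 3′ to 5′ difference. The part of RNA quality in this gap was not tested.

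Klf4, a factor of epithelial differentiation that also acts in endothelium and macrophages, rose in 1 of 2 probe sets. Probe set 1417395_at read 5.74, 6.41 and 5.66 in PiZ, against 4.76, 5.16 and 4.79 in wild-type. No PiZ value fell among the wild-type values, and the rise was 1.04 (SE 0.22, limma adjusted p = 0.0194), 2.05-fold. The call was lost without wild-type replicate 1 (adjusted p = 0.0851), without wild-type replicate 3 (adjusted p = 0.0849) and with the 3′ to 5′ covariate (0.72, adjusted p = 0.127). Probe set 1417394_at read 6.40, 5.86 and 6.04 in PiZ, against 5.58, 5.74 and 5.42 in wild-type, also without overlap. It did not pass (0.52, 95% interval 0.13 to 0.90, limma adjusted p = 0.0659). With the 3′ to 5′ covariate 1417394_at did pass (0.80, limma adjusted p = 0.0273), so the 2 probe sets moved in opposite ways. In PiZ replicate 1 alone 1417395_at lay 0.84 and 1417394_at 0.81 above the wild-type mean.

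Promoter sequences are shown for the 3 genes that rose and for Klf15, which did not pass and carried the most E-boxes among the members' promoters. They are the 250 bases before the annotated start site, from RefSeq on build GRCm38.p6. All 8 genes were matched by name in RefSeq, and promoter sequences of all but Klf10 were used. The arrays' files name no build. Capitals mark 2 motifs, the E-box CACGTG, to which clock proteins and other helix-loop-helix factors can bind, and the GC box on either strand, to which SP and Kruppel-like factors can bind and whose letters were GGGCGG.
Klf3, chr5:64803271-64803520, plus strand: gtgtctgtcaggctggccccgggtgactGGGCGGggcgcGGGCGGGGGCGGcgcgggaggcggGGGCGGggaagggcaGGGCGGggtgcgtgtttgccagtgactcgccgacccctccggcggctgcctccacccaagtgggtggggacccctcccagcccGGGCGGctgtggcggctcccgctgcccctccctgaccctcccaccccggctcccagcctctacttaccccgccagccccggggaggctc
Klf4, chr4:55532476-55532725, minus strand: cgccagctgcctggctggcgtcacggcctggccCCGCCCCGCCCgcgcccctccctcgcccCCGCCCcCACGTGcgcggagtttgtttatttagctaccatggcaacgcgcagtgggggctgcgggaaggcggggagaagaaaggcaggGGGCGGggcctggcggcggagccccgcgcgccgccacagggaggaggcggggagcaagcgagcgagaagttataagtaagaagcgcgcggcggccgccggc
Klf6, chr13:5861239-5861488, plus strand: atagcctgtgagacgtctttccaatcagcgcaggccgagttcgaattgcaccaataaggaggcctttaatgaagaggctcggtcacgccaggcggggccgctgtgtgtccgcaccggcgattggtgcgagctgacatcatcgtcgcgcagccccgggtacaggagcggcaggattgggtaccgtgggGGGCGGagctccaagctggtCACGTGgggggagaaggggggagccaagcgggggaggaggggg
Klf15, chr6:90462326-90462575, plus strand: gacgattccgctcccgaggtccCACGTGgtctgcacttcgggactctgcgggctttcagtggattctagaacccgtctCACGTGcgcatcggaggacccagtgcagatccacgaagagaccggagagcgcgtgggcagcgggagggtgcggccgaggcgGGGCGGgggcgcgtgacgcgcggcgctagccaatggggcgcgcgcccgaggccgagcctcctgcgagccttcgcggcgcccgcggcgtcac

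The sequences were rich in G and C, from 64.8% (Klf6) to 78.4% (Klf3). Klf3 held 6 GC boxes and 5 CACCC elements, Klf4 held 4 GC boxes and 1 E-box, and Klf6 held 1 of each and 4 CCAAT boxes. Klf15 held 2 E-boxes and 1 GC box. Both strands were searched for 6 motifs, also in the promoters of Klf2, Klf9 and Klf13, 7 in all. An E-box was found in 3 of the 7 promoters (Klf4, Klf6 and Klf15) and in 6.02% of all 32851 promoter windows of that length. The GC box was in 6 of 7 and in 32.7% of all windows, CACCC in 5 of 7 and 52.0%, CCAAT in 4 of 7 and 33.9%, and TGACGT, the core of cyclic AMP response elements, in 2 of 7 (Klf9 and Klf13) and 6.47%. TGATGNAA, a core of the elements bound by ATF4 with C/EBP factors, was in 0 of 7 and in 3.45% of all windows. Matches of different motifs overlapped once in Klf3 and once in Klf13. A match describes the letters and does not show that a factor binds.

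**Figure D2:**
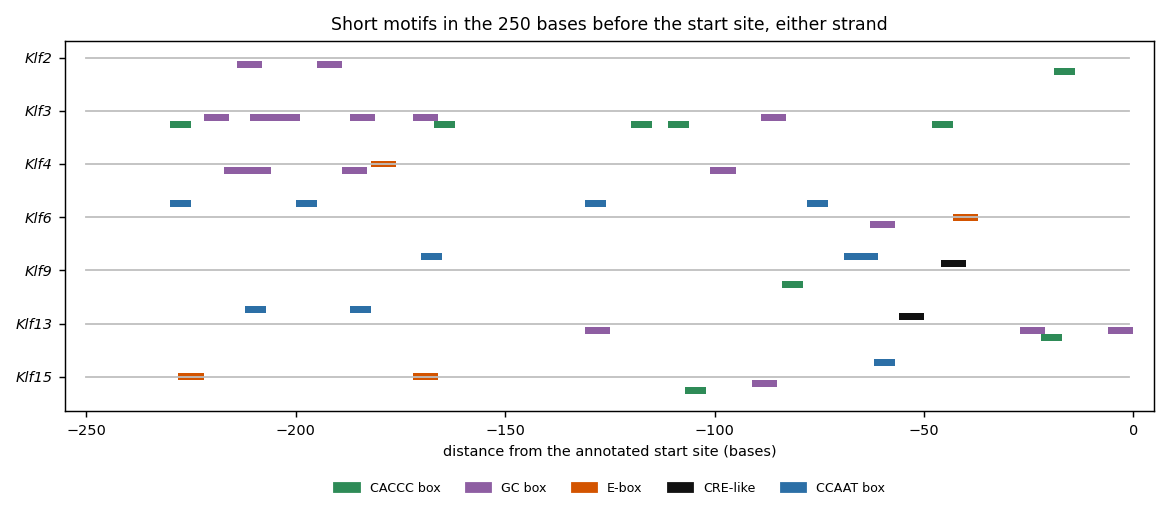
Matches of 5 short motifs on either strand in the 250 bases before the start site of 7 genes, by distance from the start site in bases (x axis); each coloured bar is 1 match. E-boxes stand in Klf4, Klf6 and Klf15, and GC boxes cluster in Klf3, which held 6.

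Klf9, induced by glucocorticoid and thyroid hormone and known to favour glucose output in liver, was bright in several probe sets and passed in 0 of 7 by limma, with 2 at an unadjusted p below 0.05 (37.4% of all probe sets). Probe set 1456341_a_at, the brightest, read 12.84, 13.19 and 13.03 in PiZ, against 12.98, 12.72 and 12.51 in wild-type. These groups overlapped, and the difference of 0.28 (95% interval -0.08 to 0.65, adjusted p = 0.225) leaves room for a rise of that upper size or for none. Probe set 1422264_s_at read 7.84, 7.16 and 6.87 in PiZ, against 8.50, 8.06 and 7.96 in wild-type, lower without overlap (-0.88, 95% interval -1.49 to -0.27, adjusted p = 0.054). It passed in 6 of 17 alternatives, among them the fit without PiZ replicate 1 (-1.16, limma adjusted p = 0.00146). With the 3′ to 5′ covariate it was -0.31 and did not pass (limma adjusted p = 0.451), and PiZ replicate 1 alone lay at -0.33.

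The other 5 Klf9 probe sets differed by -0.42 to 0.17. Of these, 1428288_at was lower at -0.42 (95% interval -0.81 to -0.03, limma adjusted p = 0.113). Probe set 1428289_at, made from the same expressed sequence, differed by 0.16 (95% interval -0.21 to 0.53). The dim probe set 1452723_at is made from that sequence too, and differed by 0.17 (95% interval -0.14 to 0.47). Probe sets 1436952_at and 1452723_at were dim, with 15% and 26.2% of all probe sets below them, and read 3.57 to 4.64. The gap between 1456341_a_at and 1422264_s_at was 5.0, 6.03 and 6.16 in PiZ and 4.48, 4.66 and 4.55 in wild-type. As for Klf3, it was widest in the 2 PiZ arrays with the largest 3′ to 5′ difference, and the part of RNA quality was not tested.

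Klf15, a fasting-induced factor that drives amino acid breakdown and gluconeogenesis in liver, read 10.14, 9.77 and 9.50 in PiZ, against 9.61, 9.76 and 9.69 in wild-type. PiZ values lay on both sides of the wild-type values, and the difference was 0.11 (95% interval -0.28 to 0.51, limma adjusted p = 0.643). PiZ replicate 1 lay 0.45 above the wild-type mean, and PiZ replicates 2 and 3 averaged -0.05 from it. With the 3′ to 5′ covariate the difference was 0.41 (limma adjusted p = 0.182). Klf2, the flow-induced factor of endothelium and of resting T cells, read 7.19, 6.63 and 6.88 in PiZ, against 6.67, 7.13 and 6.88 in wild-type. The groups overlapped almost fully, with a difference of 0.01 (95% interval -0.41 to 0.43, adjusted p = 0.981).

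Klf13, a repressor that recruits Sin3a and was first studied as an activator of a chemokine gene in T cells, passed in 0 of 3 probe sets by limma, with 1 at an unadjusted p below 0.05 (37.4% of all probe sets). Probe set 1436316_at read 9.08, 8.95 and 8.83 in PiZ, against 8.93, 9.29 and 9.58 in wild-type (-0.31, 95% interval -0.72 to 0.10). Probe set 1432543_a_at read 7.94, 8.60 and 8.60 in PiZ, against 7.72, 8.23 and 8.55 in wild-type (0.21, 95% interval -0.40 to 0.82). Both overlapped between the groups. The dim probe set 1456030_at read 4.86, 5.24 and 5.31 in PiZ, against 4.68, 4.68 and 4.68 in wild-type, higher without overlap (0.45, 95% interval 0.13 to 0.78, adjusted p = 0.0594), and PiZ replicate 1 lay only 0.18 above the wild-type mean.

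**Figure D3:**
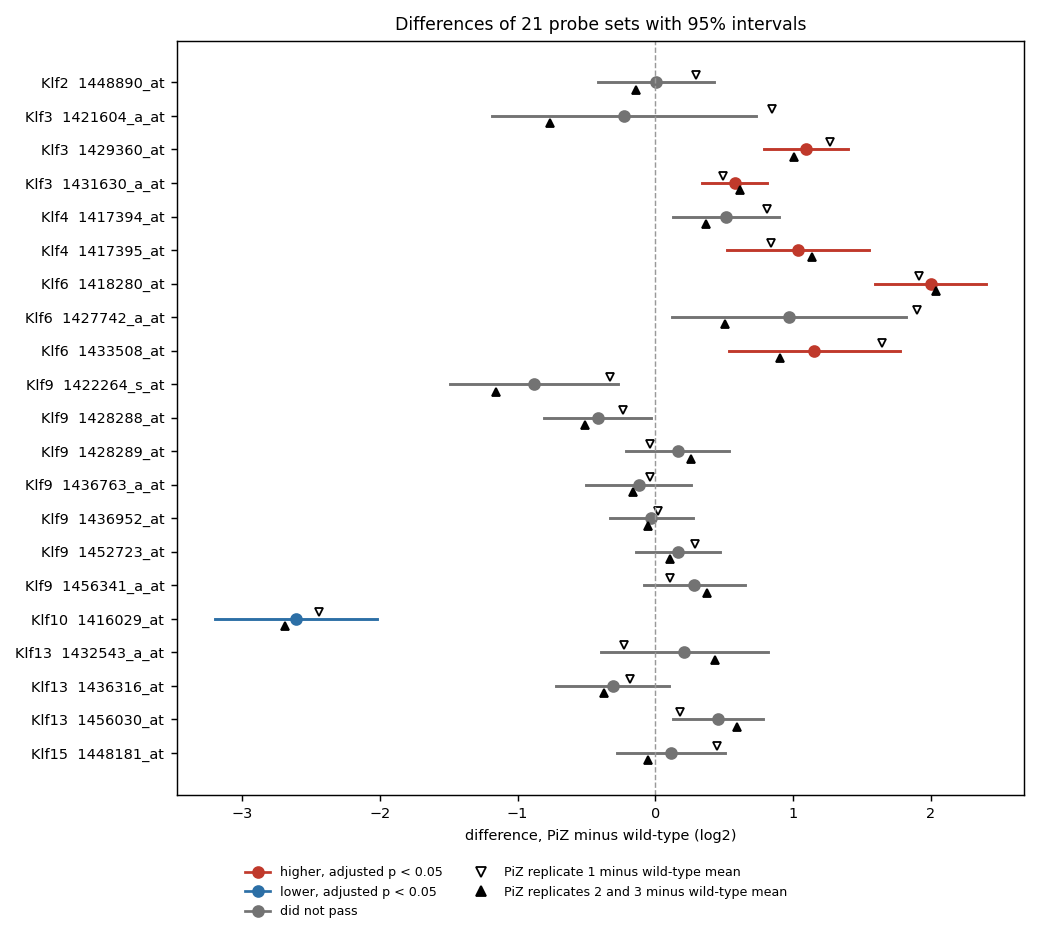
Difference of each of the 21 probe sets, PiZ minus wild-type in log2 units (x axis), with 95% intervals from limma; red passed as higher, blue as lower, grey did not pass. Open triangles give PiZ replicate 1 and filled triangles the mean of PiZ replicates 2 and 3, each minus the wild-type mean; they lie apart for Klf3 1421604_a_at (0.85 and -0.76) and close for Klf10 (-2.44 and -2.69).

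Other genes of the Kruppel-like and SP families were measured for 12 of 18 listed genes, by 19 probe sets. Taking the brightest probe set of each gene, 0 rose and 2 fell by limma, with 5 at an unadjusted p below 0.05. Over all 12393 genes taken in this way 21.2% passed and 39.6% reached that unadjusted p, so both shares in the family were close to those of all genes. Klf1, the master factor of red cell precursors, read 5.31, 5.27 and 5.54 in PiZ, against 6.59, 6.45 and 6.85 in wild-type, and fell by 1.25 (SE 0.14, adjusted p = 0.00274), with no overlap. Sp3, a widely expressed partner and rival of Sp1 at GC boxes, read 8.35, 8.44 and 7.82 in PiZ, against 8.83, 8.97 and 8.78 in wild-type, and fell by 0.66 (adjusted p = 0.0391). Klf1 passed with each array left out, and Sp3 in 2 of the 6 such fits. Sp4 had a dim probe set that fell (-0.80, adjusted p = 0.00989), while its brightest did not pass (0.27, adjusted p = 0.149). Klf5, Klf7, Klf12, Klf16, Klf17, Sp1, Sp5, Sp6 and Sp7 did not pass in any probe set, and differed by -0.28 to 0.43.

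Partners of these factors were counted against all 12393 genes, each by its brightest probe set, of which 21.2% passed as given above, 9.99% higher and 11.2% lower, with a median of 0.08. Of 14 measured corepressors, coactivators and ubiquitin ligases linked to Kruppel-like factors, 0 rose and 4 fell, and the list's median was -0.14. The acetyltransferase Kat2b (PCAF) fell by 1.25 (SE 0.22, limma adjusted p = 0.0114), and Rcor1, scaffold of the CoREST complex, fell by 1.22 (SE 0.20, adjusted p = 0.00817). The histone deacetylases Hdac2 and Hdac1 fell by 1.04 (SE 0.28) and 0.58 (SE 0.11). In each, PiZ replicate 1 lay less far below the wild-type mean than PiZ replicates 2 and 3 did. The values were -0.73 and -1.50 for Kat2b, -0.79 and -1.43 for Rcor1, -0.40 and -1.35 for Hdac2, and -0.51 and -0.62 for Hdac1. Hdac2 passed in 1 of the 6 fits with 1 array left out. Named after their values were seen, the Klf3 corepressors Ctbp1 (0.16, SE 0.12) and Ctbp2 (0.07, SE 0.19) did not pass.

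Klf4, Klf6 and Klf10 are known to respond as fast as the immediate early genes, which are switched on without new protein synthesis. Of 16 measured immediate early genes 7 rose and 0 fell, with a median of 0.86. Read in the same way, by the brightest probe set, Klf6 rose, Klf10 fell and Klf4 did not pass. The antiproliferative gene Btg2 read 10.40, 10.20 and 8.56 in PiZ, against 8.05, 7.53 and 7.0 in wild-type, and rose by 2.19 (SE 0.49, limma adjusted p = 0.0232). The orphan receptor Nr4a1 rose by 1.86 (SE 0.27), the stress gene Gadd45b by 1.85 (SE 0.31) and the small Maf factor Maff by 1.41 (SE 0.29). Btg2, Nr4a1, Gadd45b and Maff were lowest among PiZ arrays in replicate 3, as was Klf6 in all 3 of its probe sets.

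TGF-beta signalling genes, the setting in which Klf10 was found, were measured for 12 of 14, of which 0 rose and 1 fell by limma, with a median of -0.16. The receptor Tgfbr1 read 8.27, 8.08 and 7.88 in PiZ, against 9.22, 9.14 and 9.29 in wild-type, and fell by 1.14 (SE 0.13, adjusted p = 0.0029), with each array left out as well. Of 12 glucocorticoid-induced genes and their receptor, a setting of Klf9 and Klf15, 5 rose and 1 fell, with a median of 0.84. Metallothionein Mt2 rose by 3.47 (SE 0.66), the clock gene Per1 by 1.30 (SE 0.31) and tyrosine aminotransferase Tat by 1.12 (SE 0.28). The glucocorticoid receptor gene Nr3c1 fell by 1.40 (SE 0.24). It lay at -0.82 in PiZ replicate 1 and -1.69 in PiZ replicates 2 and 3, each against the wild-type mean.

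Of 7 thyroid hormone genes 1 rose, the corepressor gene Hr by 0.55 (SE 0.15), and the list's median was -0.12. Of 10 amino acid and glucose genes linked to Klf15, 3 rose and 1 fell by limma, with a median of 0.40. Besides Tat, the coactivator Ppargc1a rose by 0.80 (SE 0.23, adjusted p = 0.0474) and the glucose transporter Slc2a4 by 0.68 (SE 0.15, adjusted p = 0.0233), while the urea cycle enzyme Otc fell by 1.13 (SE 0.24, adjusted p = 0.019). Otc lay at -0.58 in PiZ replicate 1 and -1.40 in PiZ replicates 2 and 3, each against the wild-type mean. Klf15 itself was given above with an interval that spans 0.

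Of 14 measured endothelial genes linked to Klf2 and Klf4, 4 rose and 0 fell, with a median of 0.24. The list holds genes that Klf2 is known to induce, such as Thbd and Nos3, genes it represses, such as Vcam1 and Edn1, and the upstream kinases Map2k5 and Mapk7 with Mef2c, so the count has no single expected direction. The anticoagulant receptor thrombomodulin, Thbd, read 7.0, 6.74 and 6.83 in PiZ, against 5.51, 5.65 and 5.61 in wild-type, and rose by 1.26 (SE 0.11, limma adjusted p = 0.00136). The connexin Gja4 rose by 1.40 (SE 0.18), von Willebrand factor Vwf by 0.88 (SE 0.20) and the adhesion molecule Vcam1 by 0.69 (SE 0.20).

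Of 12 sinusoidal endothelial markers, 0 passed by limma, with 2 at an unadjusted p below 0.05, which 39.6% of all genes reached. Their summed log2 level was 93.7 to 94.4 in PiZ and 94.3 to 95.3 in wild-type. The 2 with the smallest p were Oit3 (-0.55, SE 0.19) and Cdh5 (0.28, SE 0.12).

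Markers of the other cells in which Klf2, Klf4, Klf6 and Klf13 act were counted in the same way. Of 10 Kupffer cell markers 3 rose and 1 fell, with the scavenger receptor Marco up by 0.97 (SE 0.16), Cd5l by 0.67 (SE 0.12), Clec4f by 0.64 (SE 0.11) and Cd163 at -0.56 (SE 0.12). Their summed log2 level was 91.9 to 95.6 in PiZ and 91.6 to 93.2 in wild-type. Of 11 stellate cell markers 1 rose, Rgs5 by 0.93 (SE 0.12), and the sum was 92.6 to 99.2 in PiZ and 92.8 to 95.5 in wild-type.

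By limma 0 of 10 lymphocyte markers and 0 of 6 cholangiocyte markers passed, with 1 of each at an unadjusted p below 0.05, against 39.6% of all genes. The lymphocyte sum was 48.6 to 51.2 in PiZ and 48.4 to 49.1 in wild-type, with Nkg7 at 0.31 (SE 0.12) and Cd3d at 0.22 (SE 0.13). The cholangiocyte sum was 28.1 to 30.9 in PiZ and 28.1 to 28.4 in wild-type, with Krt19 at 0.43 (SE 0.14) and Krt7 at 0.53 (SE 0.23). Of 11 hepatocyte markers 1 rose (Tat) and 3 fell, Fgb by 0.83 (SE 0.18), Apob by 0.81 (SE 0.18) and Fga by 0.64 (SE 0.12). Against the wild-type mean these 3 lay at -0.43, -0.41 and -0.46 in PiZ replicate 1. In PiZ replicates 2 and 3 they lay at -1.03, -1.01 and -0.73. Of 12 common reference genes 4 rose and 2 fell, with a median of -0.02. RMA gives no level of 0, so an absent cell type cannot be read from these values, and the part of cell composition in the members' differences was not tested.

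**Figure D4:**
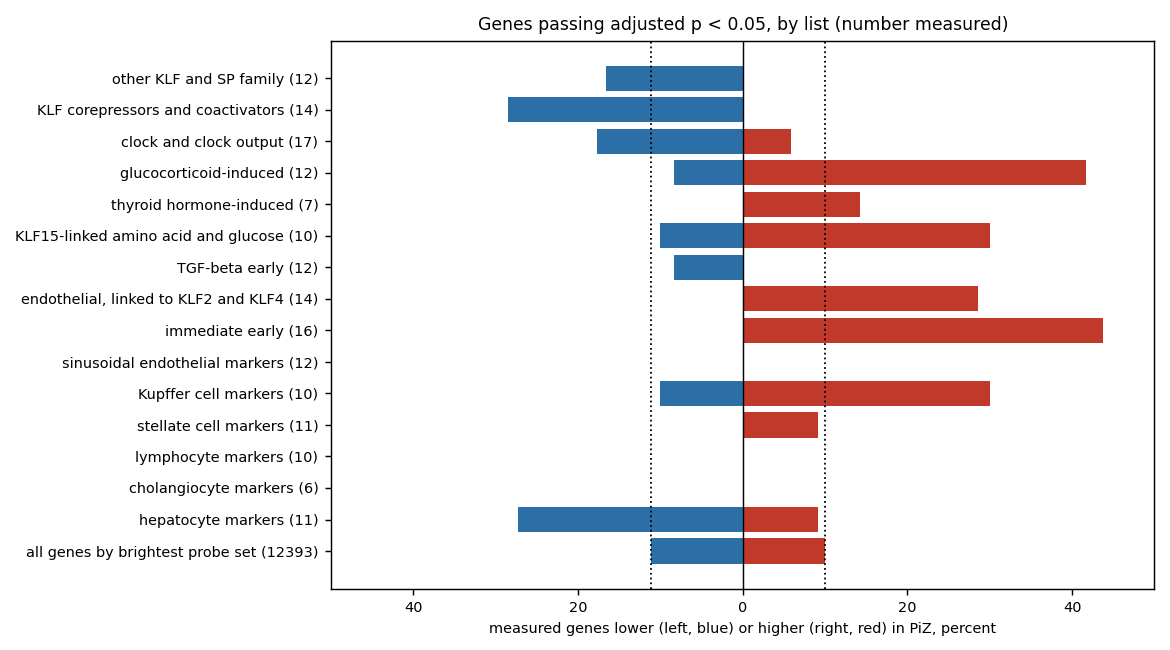
Share of measured genes (percent, x axis) that were higher (right, red) or lower (left, blue) in PiZ at a limma adjusted p below 0.05. Lists are shown with their number of measured genes, except the reference genes, of which 4 of 12 rose and 2 fell. Dotted lines mark all 12393 genes, 9.99% higher and 11.2% lower; immediate early genes reached 7 of 16 higher, and sinusoidal endothelial, lymphocyte and cholangiocyte markers 0.

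These counts depended on single arrays. Over the 98 genes of the partner, clock, hormone, Klf15-linked, TGF-beta, endothelial and immediate early lists, 29 passed, while 21.2% of all genes did. Without PiZ replicate 1, 2 or 3 the count was 52, 19 and 17, and without wild-type replicate 1, 2 or 3 it was 12, 10 and 10. The marker and reference counts moved too, and each was highest without PiZ replicate 1. With 1 array left out, 0 to 10 reference genes, 0 to 7 hepatocyte, 1 to 7 Kupffer cell, 1 to 6 stellate cell, 0 to 3 sinusoidal endothelial, 0 to 3 cholangiocyte and 0 to 1 lymphocyte markers passed, and 1 to 8 other family genes. Among 35 called genes or probe sets named from all lists, 9 passed with each array left out, namely Klf1, Rcor1, Hlf, Tgfbr1, Gja4, Thbd, Nr4a1, Marco and Rgs5.

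Klf10 is known as a clock-controlled gene, so clock genes were read beside it. Of 17 measured clock and clock output genes 1 rose and 3 fell, a share close to the 21.2% of all genes, with a median of -0.34, which was 0.13 in PiZ replicate 1 and -0.44 in PiZ replicates 2 and 3. Dbp, an output factor of the clock, read 8.15, 10.38 and 8.79 in PiZ, against 10.90, 11.73 and 12.31 in wild-type, and fell by 2.54 (SE 0.58, limma adjusted p = 0.0247). Its relative Hlf fell by 1.42 (SE 0.17) and the repressor Nr1d2 by 0.75 (SE 0.15), while Per1 rose.

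Arntl, the core activator named after its values were seen, read 7.01, 4.99 and 6.00 in PiZ, against 6.18, 4.87 and 4.65 in wild-type, and did not pass. Dbp minus Arntl was 1.14, 5.40 and 2.79 in PiZ and 4.72, 6.86 and 7.66 in wild-type, lowest in PiZ replicate 1 and highest in wild-type replicate 3. With Dbp minus Arntl as a covariate, chosen after the data were seen and built from a gene that itself fell, the Klf10 difference was -2.34 (SE 0.36, limma adjusted p = 0.0118). The part of clock phase or of the hour of collection in it was not tested. Under the same covariate Klf6 1418280_at differed by 2.16 (adjusted p = 0.00759), Klf6 1433508_at no longer passed (1.10, adjusted p = 0.0852), and Klf9 1422264_s_at and Klf13 1432543_a_at passed at -1.39 (adjusted p = 0.0223) and 0.83 (adjusted p = 0.0443).

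**Figure D5:**
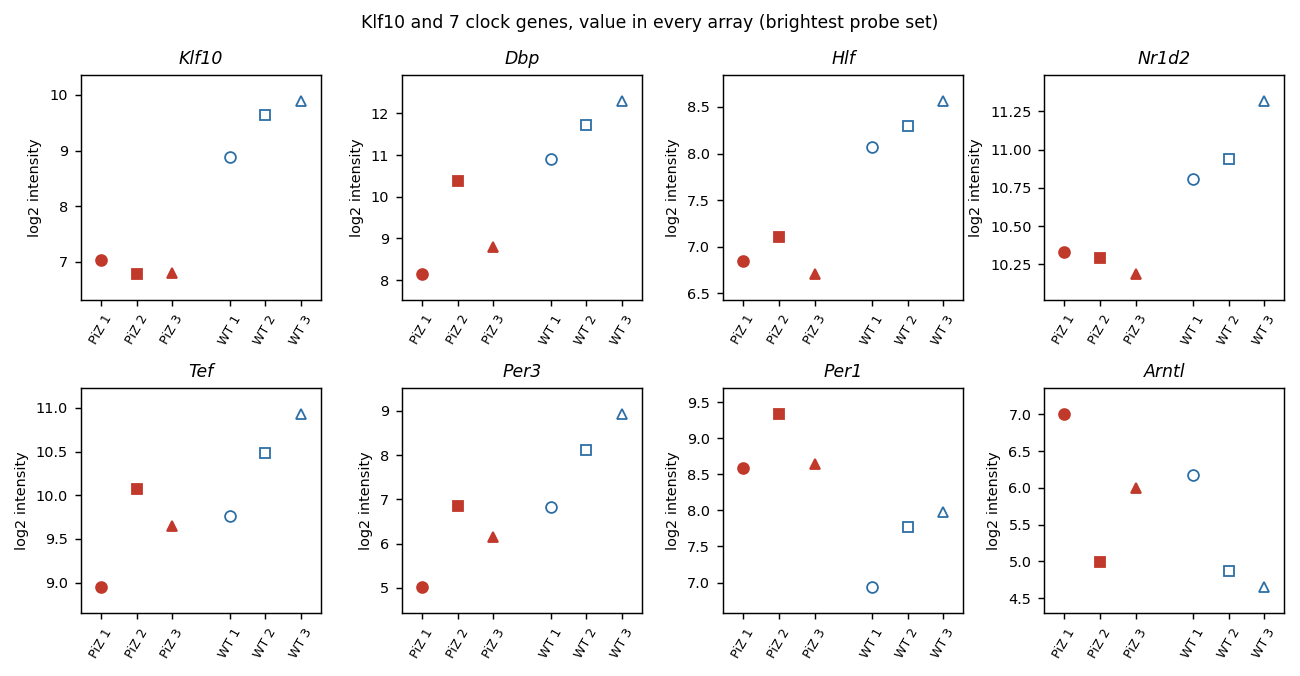
Log2 intensity (y axis) of Klf10 and 7 clock genes in each PiZ array (filled red) and each wild-type array (open blue), by the brightest probe set; Tef, Per3 and Arntl were added after their values were seen. Klf10 lies between 6.77 and 7.04 in PiZ while Dbp spans 8.15 to 10.38. In wild-type the array lowest in Klf10 is also lowest in Dbp. In PiZ the order is opposite, with replicate 2 lowest in Klf10 and highest in Dbp, and replicate 1 highest in Klf10 and lowest in Dbp.

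The genes most like each member were taken by the root mean square distance between array values after each was centred on its mean over the 6 arrays, with 2 genes per member. Over 6 arrays in 2 groups this measure mostly follows the group difference. Klf10 was nearest to the secreted cartilage protein gene Cnmd (distance 0.13, Pearson's r 0.995) and the Wnt receptor Fzd7 (0.21, r 0.988), which differed by -2.54 and -2.46. Klf3 was nearest to Baiap2l1 (0.08, r 0.990) and to Edem2, a gene of glycoprotein degradation from the endoplasmic reticulum (0.09, r 0.991). For Klf6, read by 1433508_at, they were the C/EBP factor Cebpd (0.13, r 0.982) and the GPI anchor enzyme Piga (0.16, r 0.972).

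Klf4, read by its brightest probe set 1417394_at, was nearest to Uhrf1 (0.05) and the amino acid transporter Slc1a4 (0.05). The 4 members that did not pass were near genes with similarly small differences, from -0.30 to 0.32. They were Ptov1 and Saa1 for Klf2, Slc2a3 and Smo for Klf9, Pitpnc1 and Esrra for Klf13, and Trpm1 and Ero1b for Klf15.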

How the data were processed

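Liver RNA of 3 PiZ and 3 wild-type mice was made into biotinylated cRNA and read on Affymetrix arrays, per the labels' protocols. The authors deposited 1 log2 intensity for each probe set and array. Per the submitters' processing notes they used affy, with RMA as the method. It subtracts background, gives all arrays a common distribution and summarises probes, which takes away a shift common to most genes. The version of neither is given here, and the log2 scale was read from the values (2.30 to 14.98). All 6 columns were matched to samples by name.

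Of 22690 probe sets 64 controls were left out. The platform annotation named 1 gene for 20380 probe sets, several for 691 and none for 1555. Groups were set from the labels. All 22626 probe sets were fitted in R 4.3.3 by lmFit and eBayes of limma 3.58.1 (two-sided, no covariate), and each member probe set was kept separate. List genes were taken by their brightest probe set. Probe sets were checked against RefSeq identifiers for the 8 genes, and promoters were searched with Python 3.11.15. The fit was tested on simulated data. Alternatives changed the probe sets kept, the scaling, the variance model, the threshold, the covariates and the arrays used.

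The members, lists and alternatives were chosen with earlier results of these data known. Named genes were all member and family probe sets, of each other list the called genes with the largest differences (at most 4), or 2 genes with the lowest p if none was called, and the 2 genes most like each member. Arrays with the same replicate number are of different genotypes, and no label ties them together.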

Additional observations from a re-analysis of the deposited data

How the results depend on the processing

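The calls for Klf10, Klf6 1418280_at and Klf3 1429360_at held in every alternative run for them (18, 17 and 18), with differences from -2.90 to -2.34, 1.83 to 2.16 and 1.01 to 1.29. Over all alternatives, 329 member values kept their side of the threshold, 22 passed newly, 11 were lost and 2 turned round with a pass in either fit. Those 2 were Klf3 1421604_a_at with the 3′ to 5′ covariate (0.86) and in PiZ replicate 1 alone (0.85), where the spread comes from wild-type arrays only and the lone array is assumed to vary like them. Changes of sign without a pass in either fit are counted among the 329. Klf3 1421604_a_at kept its direction in 14 of 17 alternatives, Klf2 in 14 of 18 and Klf9 1436952_at in 11 of 16. Of the 6 called member probe sets, 3 were left with 1 probe set per gene and 3 at an adjusted p below 0.01. Of all 21 member probe sets, 11 passed with array weights, and 3 to 12 with 1 array left out. Over the whole array 4331 probe sets passed, against 10986 with array weights, 2812 with the 3′ to 5′ covariate, 1133 at 0.01 and 1239 to 10547 with 1 array left out. Keeping 1 probe set per gene drops probe sets by construction, and for the other changes the cause was not tested. With the replicate number as a block 7 member probe sets and 5189 in all passed. The numbers share no stated source, their deviations correlated at 0.30, 0.30 and -0.04, and 4 of 6 arrays correlated best with their own number. The files hold no detection calls, so dim probe sets such as Klf6 1418280_at in wild-type give uncertain sizes.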

Other observations

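The wild-type livers varied in some members. Wild-type replicate 1 was the lowest wild-type array for Klf10 (8.88, against 9.65 and 9.90), for both brighter Klf13 probe sets (8.93 in 1436316_at and 7.72 in 1432543_a_at) and for the clock output gene Dbp (10.90). It was the highest wild-type array in all 7 Klf9 probe sets, among them 1456341_a_at (12.98), 1428288_at (12.23) and 1422264_s_at (8.50). The metallothionein gene Mt2 read 12.79, 13.03 and 12.68 in PiZ and spread more widely in wild-type, at 7.83, 9.37 and 10.90.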
